A study of Schmidtea mediterranea with 16 samples.

Results

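Of the 28742 genes of the dd_Smed_v6 planarian transcriptome, 142 had at least 500 opposite-strand reads that made up at least 50% of their reads. The opposite strand is the one contrary to that from which nearly all other genes were read. The 142 genes were chosen by these read totals, as every gene that met both limits over 16 libraries. An opposite-strand share is taken over the reads of both strands together. The upper limit of 200 genes was not reached. The 142 genes held 650866 opposite-strand and 254397 same-strand reads. They made up 13.01% of all opposite-strand reads but 0.0866% of all same-strand reads. Because these totals chose the genes, they are given as a description and no test was made on them.

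A directional library keeps the strand of the RNA that a read came from. A transcriptome assembly stores each transcript as a contig in one orientation, so a read counts as same-strand or opposite-strand only relative to that contig. Opposite-strand reads can be antisense RNA, which pairs with a transcript of the other strand and is known in animals to affect the transcription, splicing or stability of some of its partners, RNA of an overlapping neighbour gene, or ordinary RNA of a contig stored in reverse. These sources cannot be told apart here. The files do not pair the identifiers with gene names, so the genes are called by their identifiers and no role is given to them.

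The libraries were made from poly(A) RNA of sorted X1 cells of the planarian Schmidtea mediterranea, a flow cytometry gate that is rich in dividing stem cells, the neoblasts. Each of 4 groups had 4 libraries: unc-22(RNAi) or atm(RNAi), either unirradiated or irradiated with 2000 rads and collected 1 day later. RNA interference (RNAi) against unc-22, a nematode muscle gene, was the control, and atm encodes a kinase of the response to DNA breaks. The cell type rests on the labels, since no marker could be matched to an identifier, and the level of atm was not checked for the same reason. Same-strand reads per library ranged from 6.99 M to 26.5 M (M, reads in units of 1000000), with a mean of 11.3 M ± 3.42 (SD, n = 4) for the irradiated unc-22(RNAi) group and means of 19.5 M to 21.6 M in the other groups. Opposite-strand reads were 1.33% to 2.42% of the reads counted in genes.

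Most genes had a far lower opposite-strand share than the 50% that the rule required of the members. Among the 10337 genes with at least 1000 reads on both strands together, the median opposite-strand share was 1.08%. Of these, 9805 genes (94.9%) were under 5%, 417 lay between 5% and 50%, and 115 were at 50% or more. The shares of the 142 members ran from 50.4% to 100%, with a median of 77.2%. They spread over the whole range: 33 members lay between 50% and 60%, 22 between 60% and 70%, 23 between 70% and 80%, 27 between 80% and 90%, 10 between 90% and 95%, and 27 at 95% or more.

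**Figure D1:**
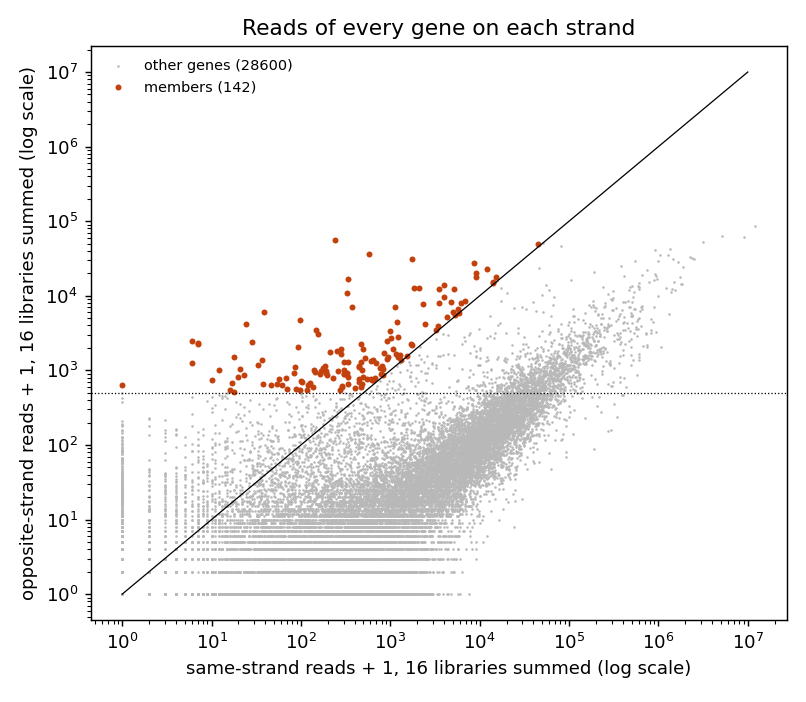
Opposite-strand reads (vertical axis) against same-strand reads (horizontal axis) of every gene, summed over 16 libraries, with 1 read added, on log scales. The solid line marks equal reads on both strands and the dotted line the minimum of 500 reads; the 142 members (orange) lie on or above both lines, and most other genes (grey) lie far below the solid one.

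The cutoffs cut through a continuous range of values. Just inside the minimum of 500 reads were dd_Smed_v6_16967_0 with 506 opposite-strand reads, dd_Smed_v6_15804_0 with 538 and dd_Smed_v6_18739_0 with 538. Just outside it were dd_Smed_v6_35861_0 with 498, dd_Smed_v6_6041_0 with 494 and dd_Smed_v6_39710_0 with 489. At the minimum share, dd_Smed_v6_5071_0 was in at 50.4%, dd_Smed_v6_2712_3 at 50.8% and dd_Smed_v6_11111_2 at 50.9%. On the other side stood dd_Smed_v6_1180_0 at 49.9%, dd_Smed_v6_1939_0 at 49.8% and dd_Smed_v6_15498_0 at 49.8%. The first of these, dd_Smed_v6_1180_0, had 51454 opposite-strand and 51577 same-strand reads.

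Many members joined several contigs. Of the 142 members, 73 had 1 transcript and 69 had more, up to 54. That is 48.6% with more than 1 transcript, against 17.7% of all genes and 16.8% of the 12258 other genes with at least 500 reads. In 55 of the 69, at least 2 transcripts had 50 reads or more. In 8 of these 55, each such transcript was at least 90% opposite-strand, and in 18 of them some transcripts were at least 90% and others at most 10% opposite-strand. The share of a gene among these 18 is therefore a mixture of contigs read from contrary strands. The rest of the 55 met neither pattern, among them dd_Smed_v6_11111_2, whose transcripts ran from 37.1% to 56.8% opposite-strand.

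Mixtures among the 18 were sharp, as the limits of 90% and 10% required. In dd_Smed_v6_10331_0, chosen for description after its values were seen, as were the next pair, transcript dd_Smed_v6_10331_0_1 had 1525 opposite-strand and 16 same-strand reads, while dd_Smed_v6_10331_0_2 had 0 and 919. In dd_Smed_v6_7972_0, transcript dd_Smed_v6_7972_0_1 had 1110 and 6 reads, while dd_Smed_v6_7972_0_2 had 21 and 801. In dd_Smed_v6_2712_3, transcript dd_Smed_v6_2712_3_1 alone held 14157 opposite-strand reads beside 98 same-strand reads, and dd_Smed_v6_2712_3_9 held 83 beside 5717. The gene as a whole stood at 50.8%, a value that neither transcript had. Among the 73 members with 1 transcript, 15 were at 95% or more and 26 under 70%, so reads from both strands of 1 contig were also frequent.

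The deposited matrix holds the same-strand reads only. Of the 142 members, 141 were in it, and 0 of their 2256 matrix values differed from the same-strand counts. The member outside it had 640 opposite-strand reads and 0 same-strand reads. A further description of the matrix is that 21 members had under 50 same-strand reads over the 16 libraries, so that nearly all of their counted reads are outside it.

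The strand share held in most groups but was lowest in irradiated unc-22(RNAi). At least 50% opposite-strand reads were found without irradiation in 139 of 142 members under unc-22(RNAi) and 138 under atm(RNAi), and with irradiation in 114 under unc-22(RNAi) and 132 under atm(RNAi). The median member share was 81.2%, 80.3%, 70.8% and 77.5% in the same order. In all 4 groups 106 members were at 50% or more, and in every one of the 16 libraries 62 were. The rule used these reads summed over the groups, and irradiated unc-22(RNAi) gave the fewest, so its lower share is a description with no test. That group also had the most unmapped reads, 50.5% to 70.9% of a library against 24.8% to 46.4% elsewhere, and their part in the lower share was not tested.

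**Figure D2:**
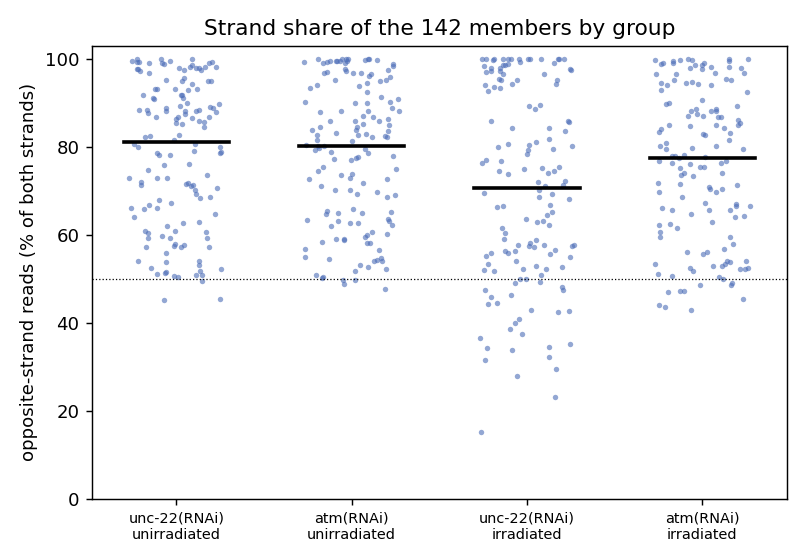
Opposite-strand share of each member (points, % of the reads of both strands, 4 libraries of a group summed) in the 4 groups, with the median as a bar and the 50% minimum dotted. The medians are 81.2%, 80.3%, 70.8% and 77.5% from left to right, and the points under 50% are most frequent in irradiated unc-22(RNAi).

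Single libraries weighed on another measure, the share of all member reads summed. Summed over the members, the opposite-strand share in unirradiated cells was 73.1% ± 2.83 (SD, n = 4) under unc-22(RNAi) and 73.9% ± 4.53 under atm(RNAi), and in irradiated cells 67.6% ± 4.26 and 70.9% ± 1.43. Replicate 1 of irradiated unc-22(RNAi), the shallowest library, was lowest at 61.2%. In that library dd_Smed_v6_33595_0 and dd_Smed_v6_92469_0, both read about equally from either strand, had 67.0% and 55.2% of all their opposite-strand reads. Without this pair the share of irradiated unc-22(RNAi) was 69.9% ± 0.308 and the other groups stood at 71.3% to 74.2%. The members took 8.17% to 21.2% of all opposite-strand reads of a library.

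Levels are given below as counts per 1000000 (CPM), reads on one strand of a gene per 1000000 scaled reads of both strands. They are not divided by gene length, so levels are compared between libraries and strands of 1 gene, not between genes. The test was the edgeR quasi-likelihood test over all 23154 features, each gene being tested separately on its opposite-strand and its same-strand reads where these passed a filter on low counts. A feature was called at an adjusted p under 0.05. All 142 members passed on the opposite strand and 112 passed on the same strand. The labels do not say whether libraries came from separate animals or cultures, so the p-values measure the spread between these libraries, which may be technical. In sorted cells, fewer cells of a type and less RNA per cell cannot be told apart.

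With irradiation in unc-22(RNAi), 48 of 142 members (33.8%) were called on opposite-strand reads, 16 higher and 32 lower. Over all features tested 38.3% were called, 18.9% higher and 19.5% lower. By strand, called were 11.7% of the opposite-strand features of other genes and 46.2% of same-strand features. Members were chosen for many opposite-strand reads, with a median of 1311 against 233 in the opposite-strand features of other genes, and these shares were not matched for depth. A member that reached 500 reads only through 1 group had to be high in that group, so the split of the 48 is a description. Of the 112 members that keep 500 reads without any 1 group, 44 were called, 15 higher and 29 lower. These members still had to pass the 50% share over all groups summed, so this split is also a description. Calls of 2-fold or more numbered 36 members (25.4%), against 26.5% of all features. Reads left unmapped were 50.5% to 70.9% in irradiated unc-22(RNAi) and 24.8% to 46.4% in the other groups, and the part of this in the counts was not tested. The members' median log2 fold change was 0.06, against 0.01 over all features, and the median size of the change was 0.77 against 0.93. Groups did not overlap in 46 members (32.4%), against 33.9% of all features. By strand share, called were 11 of 33 members between 50% and 60%, 24 of 72 between 60% and 90%, and 13 of 37 at 90% or more. With the libraries of lane 7 alone (replicates 3 and 4) 26 members were called and with those of lane 8 alone (replicates 1 and 2) 1 was. Fitting the opposite-strand reads without the same-strand reads called 28.

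The sharpest fall was that of dd_Smed_v6_5639_0, a gene of 1 transcript with 8216 opposite-strand and 4835 same-strand reads. Its opposite-strand level was 41.5, 41.6, 37.7 and 42.8 CPM in unirradiated unc-22(RNAi) and 2.23, 2.29, 5.76 and 2.91 CPM in irradiated unc-22(RNAi). The groups did not overlap, and the lowest unirradiated library was several times the highest irradiated one. The opposite-strand log2 fold change was -3.60 (SE 0.29, edgeR adjusted p = 2.26e-07), and it was -3.22 in lane 7 and -4.15 in lane 8. Over the same libraries its same-strand level was 15.2, 16.3, 11.9 and 16.6 CPM unirradiated and 19.8, 15.0, 25.7 and 18.1 CPM irradiated. These values overlap, with a log2 fold change of 0.39 (SE 0.19, edgeR adjusted p = 0.117). The share of opposite-strand reads of this gene went from 73.0% to 15.1%.

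Other members fell on both strands. The opposite-strand level of dd_Smed_v6_2709_0 was 50.2, 50.6, 53.9 and 48.8 CPM without and 27.3, 20.9, 24.5 and 21.7 CPM with irradiation, a log2 fold change of -1.11 (SE 0.15, edgeR adjusted p = 2.96e-05). The irradiated libraries were all lower by about the same amount, and same-strand reads fell by 1.30 on the log2 scale (edgeR adjusted p = 0.000188). For dd_Smed_v6_5071_0 the opposite-strand level was 28.0, 24.8, 23.3 and 26.3 CPM without and 10.4, 7.10, 11.3 and 7.36 CPM with irradiation. The groups lay well apart, with a log2 fold change of -1.50 (SE 0.20, edgeR adjusted p = 2.85e-05), and the same strand fell by 1.12 (edgeR adjusted p = 0.000814). Next came dd_Smed_v6_2475_0, at 71.2, 60.6, 83.4 and 62.2 CPM without and 34.3, 34.2, 42.4 and 29.2 CPM with irradiation on the opposite strand. Again no library overlapped, and both strands fell by similar amounts, -0.98 (SE 0.15, edgeR adjusted p = 7.23e-05) and -1.05 (SE 0.19, edgeR adjusted p = 0.000304). The second most read member, dd_Smed_v6_2218_0, fell less, by 0.46 on the opposite strand (edgeR adjusted p = 0.00835) and by 0.68 on the same strand (edgeR adjusted p = 0.0173).

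One low member, described after its values were seen, had 1 library without an opposite-strand read. The opposite-strand level of dd_Smed_v6_17279_0 was 12.9, 12.5, 12.5 and 13.2 CPM without and 3.67, 1.68, 0 and 2.75 CPM with irradiation, a log2 fold change of -2.71 (SE 0.59, edgeR adjusted p = 0.00159). The unirradiated libraries lay close together and all irradiated ones were far lower. Its same-strand reads also fell, by 1.91 (edgeR adjusted p = 0.00407).

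Risers were fewer. The opposite-strand level of dd_Smed_v6_1871_0, a gene of 4 transcripts, was 55.6, 44.3, 28.8 and 43.1 CPM without and 114, 102, 74.1 and 97.9 CPM with irradiation. Every irradiated library was above every unirradiated one, and the log2 fold change was 1.17 (SE 0.24, edgeR adjusted p = 0.00103), with 1.08 on the same strand (edgeR adjusted p = 0.00315). In dd_Smed_v6_18819_0, which is 97.3% opposite-strand, the level was 3.09, 3.01, 2.72 and 1.88 CPM without and 8.26, 10.2, 6.63 and 6.47 CPM with irradiation. The groups were apart at these low levels, with a log2 fold change of 1.56 (SE 0.38, edgeR adjusted p = 0.00344), and the same strand had too few reads to be tested. In dd_Smed_v6_16692_0, a gene of 10 transcripts, it was 1.17, 2.57, 2.15 and 1.42 CPM without and 9.96, 14.6, 5.32 and 4.94 CPM with irradiation. All irradiated libraries were higher but spread widely, and the log2 fold change was 2.25 (SE 0.52, edgeR adjusted p = 0.00247).

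On same-strand reads, irradiation in unc-22(RNAi) moved 26 of the 112 members tested (23.2%), 18 higher and 8 lower. The share called over all same-strand features was 46.2%. The 2 lanes alone gave 15 (lane 7) and 0 (lane 8). Of these 112 members, 16 (14.3%) were called on both strands, 12 in 1 direction and 4 (3.57%) in contrary directions. Of the 5043 other genes tested on both strands, 495 (9.82%) were called on both, 475 in 1 direction and 20 (0.397%) in contrary directions. On the opposite strand alone, 22 of the 112 members (19.6%) and 1.76% of the other genes were called, and on the same strand alone 10 members (8.93%) and 53.0% of the other genes. These shares are given side by side with no test, because the rule used the reads of both strands. A further 10 members called on the opposite strand were not tested on the same strand.

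The 4 members with contrary calls all fell on the opposite strand and rose on the same strand. The rule required a high opposite-strand share over all libraries summed, most of whose reads came from the other groups. It thus favoured members that change in this direction, and the common direction is a description. In dd_Smed_v6_1760_1, whose first transcript held nearly all its reads, the opposite-strand level was 116, 146, 122 and 122 CPM without and 77.1, 47.8, 70.8 and 60.2 CPM with irradiation. Its same-strand level was 1.78, 4.20, 3.91 and 2.96 CPM without and 9.57, 21.8, 9.70 and 18.8 CPM with irradiation. Neither strand's groups overlapped, and the log2 fold changes were -0.98 (SE 0.17, edgeR adjusted p = 0.000267) and 2.22 (SE 0.38, edgeR adjusted p = 0.000216).

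The same division was found in dd_Smed_v6_2627_0, a gene of 1 transcript. Its opposite-strand level was 81.7, 67.3, 65.1 and 68.8 CPM without and 54.5, 62.0, 54.4 and 50.6 CPM with irradiation. Its same-strand level was 17.0, 16.6, 13.9 and 16.02 CPM without and 100, 48.2, 90.2 and 69.4 CPM with irradiation. The fall was slight, at -0.35 (SE 0.13, edgeR adjusted p = 0.0455, called in 8 of 24 alternative settings), and the rise was large, at 2.28 (SE 0.23, edgeR adjusted p = 1.61e-06).

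A weaker case was dd_Smed_v6_1195_0, whose opposite-strand level was 114, 112, 104 and 108 CPM without and 69.9, 33.1, 58.6 and 42.6 CPM with irradiation. Its same-strand level was 23.5, 31.4, 26.3 and 27.6 CPM without and 26.5, 46.5, 41.0 and 48.2 CPM with irradiation, so that these groups overlapped at 1 library. The log2 fold changes were -1.10 (SE 0.20, edgeR adjusted p = 0.000341) and 0.58 (SE 0.19, edgeR adjusted p = 0.022). The fourth gene, dd_Smed_v6_1191_0, named after its values were seen, had -1.15 (edgeR adjusted p = 0.00281) on the opposite and 1.399 (edgeR adjusted p = 0.00314) on the same strand.

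In 10 members the same strand was called and the opposite strand did not pass the test, and 2 of them are described here. For dd_Smed_v6_172_1, chosen after its values were seen, the same-strand level was 4.88, 5.58, 9.90 and 4.80 CPM without and 23.7, 98.1, 37.2 and 81.2 CPM with irradiation. The irradiated libraries were all higher and varied widely among themselves, with a log2 fold change of 3.26 (SE 0.52, edgeR adjusted p = 0.000114). Its opposite-strand level was 43.4, 34.7, 36.7 and 42.7 CPM against 36.4, 37.9, 60.2 and 45.4 CPM, a log2 fold change of 0.19 (SE 0.17, edgeR adjusted p = 0.383). In dd_Smed_v6_2532_0 the same strand fell, from 52.1, 49.7, 53.8 and 46.0 CPM to 25.0, 20.4, 22.8 and 20.1 CPM, a log2 fold change of -1.19 (SE 0.14, edgeR adjusted p = 9.13e-06). The opposite strand of this gene stood at 77.8, 77.7, 66.8 and 68.4 CPM without and 102, 48.8, 106 and 82.3 CPM with irradiation, which overlap (log2 fold change 0.22, SE 0.19, edgeR adjusted p = 0.38).

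The ratio of the 2 strands was tested directly in 1 edgeR fit over both strands of each library, for the 4786 genes with at least 100 reads on each strand, 109 of them members. With irradiation in unc-22(RNAi) the ratio of opposite-strand to same-strand reads changed in 3 members (2.75%), where 0.230% of all genes tested, 11 genes, were called. These shares were not matched for depth. All 3 moved toward the same strand, a direction that the member rule favoured, so their common direction is a description. The log2 change of the ratio was -4.11 (SE 0.57, edgeR adjusted p = 0.00188) in dd_Smed_v6_5639_0, -3.19 (SE 0.54, edgeR adjusted p = 0.00985) in dd_Smed_v6_1760_1 and -2.58 (SE 0.45, edgeR adjusted p = 0.0113) in dd_Smed_v6_2627_0. In lane 7 alone these changes were -3.90, -2.89 and -2.76, and all 3 were called. In lane 8 alone they were -4.32, -3.51 and -2.40, and 0 members passed.

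Without replicate 1 of irradiated unc-22(RNAi) 7 members passed this test. For dd_Smed_v6_172_1 the log2 change of the ratio was -2.93 (SE 0.66, edgeR adjusted p = 0.0655). The median change was -0.67 over the members and -0.27 over all genes tested, and the ratio was lower in 73 of 109 members (67.0%) and in 64.3% of all genes tested. The rule required a high share over all libraries summed, most of whose reads came from the other groups, and how far this leaned the members toward that direction was not tested.

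**Figure D3:**
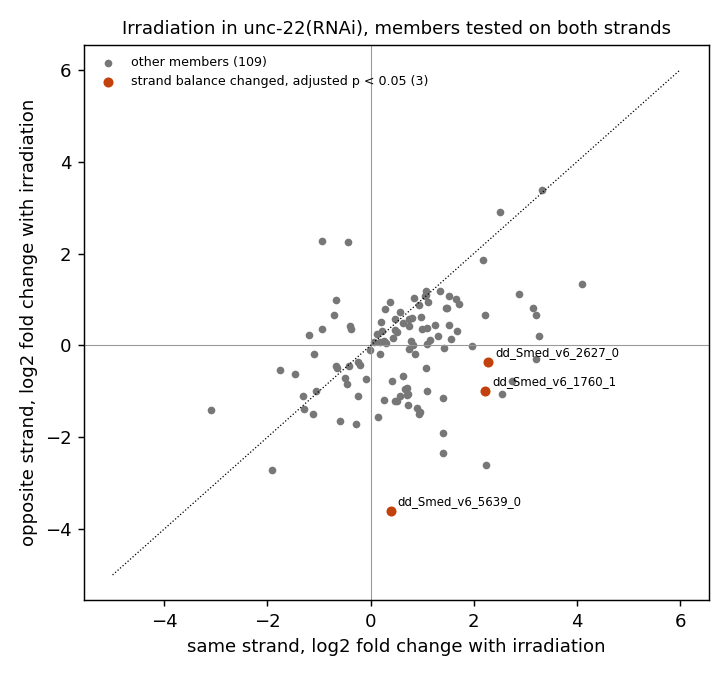
Log2 fold change with irradiation in unc-22(RNAi) on the opposite strand (vertical axis) against the same strand (horizontal axis) for the 112 members tested on both strands, with equal change dotted. The 3 members whose strand ratio changed (orange) lie below the dotted line, with opposite-strand changes of -3.60, -0.98 and -0.35.

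**Figure D4:**
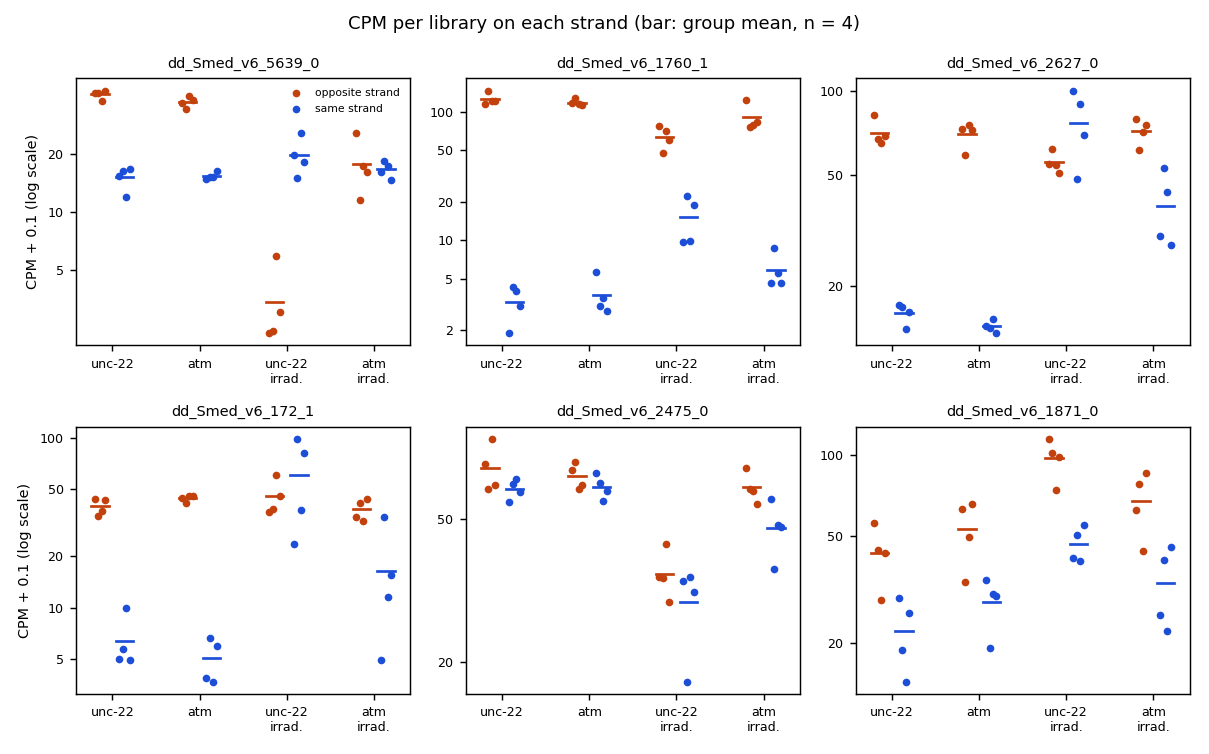
CPM on the opposite strand (orange) and the same strand (blue) in each library of 6 members, with 0.1 added on a log axis and a bar for each group mean (n = 4). In dd_Smed_v6_5639_0 the opposite strand of irradiated unc-22(RNAi) lies between 2.23 and 5.76 CPM, under every other group, while in dd_Smed_v6_2475_0 and dd_Smed_v6_1871_0 both strands move together.

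Under atm(RNAi), few members moved with irradiation. On opposite-strand reads 1 member, lower, was called, where 2.00% of all features were called, 1.29% higher and 0.713% lower. Called were 0.0958% of the opposite-strand features of other genes and 2.57% of same-strand features. In addition, 13 members (9.15%) had groups that did not overlap, against 12.9% of features. That member was again dd_Smed_v6_5639_0, at 36.9, 34.2, 40.0 and 38.3 CPM in unirradiated and 25.6, 11.4, 17.4 and 16.1 CPM in irradiated atm(RNAi). The irradiated libraries were all lower but kept more than any of irradiated unc-22(RNAi), and the log2 fold change was -1.08 (SE 0.26, edgeR adjusted p = 0.037, called in 11 of 24 alternative settings). On same-strand reads 1 member was called, dd_Smed_v6_2627_0, at 14.2, 13.99, 15.1 and 13.4 CPM without and 30.0, 52.8, 43.3 and 27.9 CPM with irradiation. It rose by 1.44 (SE 0.22, edgeR adjusted p = 0.00311), while its opposite strand gave 0.04 (SE 0.13, edgeR adjusted p = 0.952).

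Single libraries decided this small count. On the opposite strand, 6 members were called without replicate 1 of irradiated atm(RNAi), 3 without replicate 2 of irradiated unc-22(RNAi), and 0 without replicate 1, 2 or 4 of unirradiated unc-22(RNAi), any replicate of unirradiated atm(RNAi), or replicate 2, 3 or 4 of irradiated atm(RNAi). On the same strand it was 3 without replicate 1 of irradiated atm(RNAi) or replicate 2 of irradiated unc-22(RNAi), and 2 without replicate 1 of the latter. Each lane alone gave 0 on both strands. The strand ratio changed in 0 members, where 0.00% of genes were called by edgeR; at an unadjusted p under 0.05 there were 4 members and 79 genes.

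Knockdown of atm without irradiation called 0 members on either strand, where 0.00% of all features were called by edgeR. At an unadjusted p under 0.05, 4 members and 390 features were found, and DESeq2 called 0 members. Groups did not overlap in 4 members (2.82%), against 3.06% of features. The median size of the log2 change of the members was 0.21, against 0.25 over all features. For dd_Smed_v6_5639_0 the opposite-strand change was -0.13 (SE 0.25), for dd_Smed_v6_1760_1 it was -0.10 (SE 0.17) and for dd_Smed_v6_2627_0 it was -0.01 (SE 0.13), all with an edgeR adjusted p = 1.

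In irradiated cells, 13 members (9.15%) differed between atm(RNAi) and unc-22(RNAi) on opposite-strand reads, 12 higher and 1 lower in atm(RNAi), where 11.5% of all features were called, 9.26% higher and 2.25% lower. By strand, 2.15% of the opposite-strand features of other genes and 14.3% of same-strand features were called. Groups did not overlap in 17 members (11.97%), against 12.7% of features. On same-strand reads 10 of the 112 members tested (8.93%) were called, 4 higher and 6 lower. Without replicate 1 of irradiated atm(RNAi) 5 members were called on the opposite strand, without replicate 2 of it 21, and without replicate 3 of unirradiated atm(RNAi) 8. Lane 7 alone gave 3, lane 8 alone 0, and a fit of these 2 groups without the others 0. This comparison shares its irradiated unc-22(RNAi) libraries with that of irradiation in unc-22(RNAi).

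Of the 12 that were higher, dd_Smed_v6_5639_0 had the smallest p. Its opposite-strand level, 2.23 to 5.76 CPM under unc-22(RNAi) and 11.4 to 25.6 CPM under atm(RNAi), gave a log2 fold change of 2.39 (SE 0.28, edgeR adjusted p = 7.59e-05). Its same-strand levels overlapped (log2 fold change -0.25, SE 0.19, edgeR adjusted p = 0.45). In dd_Smed_v6_2475_0 the opposite-strand level was 34.3, 34.2, 42.4 and 29.2 CPM under unc-22(RNAi) and 69.3, 60.6, 59.7 and 55.0 CPM under atm(RNAi). The latter overlapped the 60.6 to 72.1 CPM of unirradiated atm(RNAi), and the log2 fold change was 0.80 (SE 0.15, edgeR adjusted p = 0.00223). In dd_Smed_v6_2709_0 it was 27.3, 20.9, 24.5 and 21.7 CPM against 46.1, 33.6, 42.5 and 33.0 CPM, a log2 fold change of 0.72 (SE 0.15, edgeR adjusted p = 0.00524).

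Some members differed on 1 strand or in contrary directions. In irradiated atm(RNAi), dd_Smed_v6_1195_0 was higher than in irradiated unc-22(RNAi) by 0.75 on the opposite strand (SE 0.20, edgeR adjusted p = 0.0194) and lower by 0.72 on the same strand (SE 0.19, edgeR adjusted p = 0.0197). The same-strand reads of dd_Smed_v6_2627_0 were lower by a log2 fold change of -1.001 (SE 0.22, edgeR adjusted p = 0.007), those of dd_Smed_v6_1760_1 by -1.38 (SE 0.37, edgeR adjusted p = 0.0206) and those of dd_Smed_v6_172_1 by -1.87 (SE 0.49, edgeR adjusted p = 0.0179). Higher were those of dd_Smed_v6_2532_0, by 0.67 (SE 0.14, edgeR adjusted p = 0.00532), and of dd_Smed_v6_4330_0, named after its values were seen, by 1.09 (SE 0.24, edgeR adjusted p = 0.00683). The last stood at 4.59, 10.4, 7.13 and 10.7 CPM under unc-22(RNAi) and 23.2, 17.0, 15.4 and 14.4 CPM under atm(RNAi), without overlap, while its opposite strand gave 0.28 (SE 0.16, edgeR adjusted p = 0.284).

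The interaction, the difference between the irradiation effects in atm(RNAi) and unc-22(RNAi), was called in 2 members on opposite-strand reads, both positive, where 2.16% of all features were called and 1.89% were positive. Of the opposite-strand features of other genes 0.345% were called, and of same-strand features 2.69%. In dd_Smed_v6_5639_0 it was 2.52 on the log2 scale (SE 0.37, edgeR adjusted p = 0.00307), and the 2 lanes alone gave 1.99 and 3.21, neither past the threshold. In dd_Smed_v6_2475_0 it was 0.88 (SE 0.21, edgeR adjusted p = 0.0356), called in 8 of 23 alternative settings with adjusted p from 0.018 to 0.893. On the same strand 1 member was called, dd_Smed_v6_2532_0 at 0.79 (SE 0.20, edgeR adjusted p = 0.045). That call held in 6 alternative settings and missed the threshold in 16. The opposite-strand count was 4 without replicate 1 of irradiated unc-22(RNAi). It was 1 without replicate 1, 3 or 4 of unirradiated unc-22(RNAi), any replicate of unirradiated atm(RNAi), replicate 4 of irradiated unc-22(RNAi), or replicate 1 or 3 of irradiated atm(RNAi).

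Some of the most read members varied widely within groups. The most read was dd_Smed_v6_18460_0, with 55551 opposite-strand and 240 same-strand reads (99.6%) on 1 transcript. Its level was 448, 33.0, 227 and 29.9 CPM under unc-22(RNAi) and 824, 115, 22.6 and 94.8 CPM under atm(RNAi) without irradiation, and 142, 287, 183 and 334 CPM and 74.9, 81.0, 19.6 and 231 CPM, in the same order, with irradiation. Replicates of a group lay far apart, all groups overlapped, and no contrast was called (edgeR adjusted p from 0.437 to 1).

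The third, dd_Smed_v6_8048_0, with 36800 opposite-strand and 581 same-strand reads on 1 transcript, was high in much the same libraries. Its level was 222, 24.3, 130 and 17.8 CPM under unc-22(RNAi) and 531, 102, 15.9 and 45.8 CPM under atm(RNAi) without irradiation, and 113, 214, 143 and 286 CPM and 51.5, 99.8, 28.9 and 120 CPM, in the same order, with irradiation. Replicate 1 was the highest library of both unirradiated groups for each of these genes, and replicate 4 the highest of both irradiated groups. The lowest edgeR adjusted p over its contrasts was 0.336.

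A steadier member of the same kind was dd_Smed_v6_4026_0, 98.1% opposite-strand. Without irradiation its mean was 55.8 ± 7.45 CPM (SD, n = 4) under unc-22(RNAi) and 64.4 ± 5.22 under atm(RNAi), and with irradiation 39.8 ± 14.7 and 60.8 ± 11.5. None of its contrasts passed the test, the nearest being atm against unc-22 in irradiated cells at 0.61 (SE 0.22, edgeR adjusted p = 0.0749).

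A pair of members was set by 1 library. The opposite-strand level of dd_Smed_v6_33595_0 was 1332, 14.8, 19.1 and 6.88 CPM in irradiated unc-22(RNAi), and its same-strand level there was 1176, 20.01, 17.6 and 7.53 CPM. Outside replicate 1 of that group its opposite-strand level lay between 3.07 and 85.5 CPM, the highest being replicate 3 of unirradiated unc-22(RNAi). Both strands moved together, and replicate 1 alone made the group mean. This gene was the 1 member called lower in irradiated atm(RNAi), at -4.46 (SE 1.43, edgeR adjusted p = 0.0496), and without replicate 1 of irradiated unc-22(RNAi) the log2 fold change was 0.22 (edgeR adjusted p = 0.9).

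The other, dd_Smed_v6_92469_0, was described after its values were seen. It stood at 613, 8.78, 16.3 and 3.80 CPM on the opposite strand and 441, 7.48, 14.01 and 4.77 CPM on the same strand in irradiated unc-22(RNAi). In irradiated atm(RNAi) its opposite-strand level was 3.55, 2.63, 2.60 and 55.0 CPM. In both genes replicate 1 of irradiated unc-22(RNAi), replicate 3 of unirradiated unc-22(RNAi) and replicate 4 of irradiated atm(RNAi) were the highest libraries of their groups. The source of these reads was not tested.

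**Figure D5:**
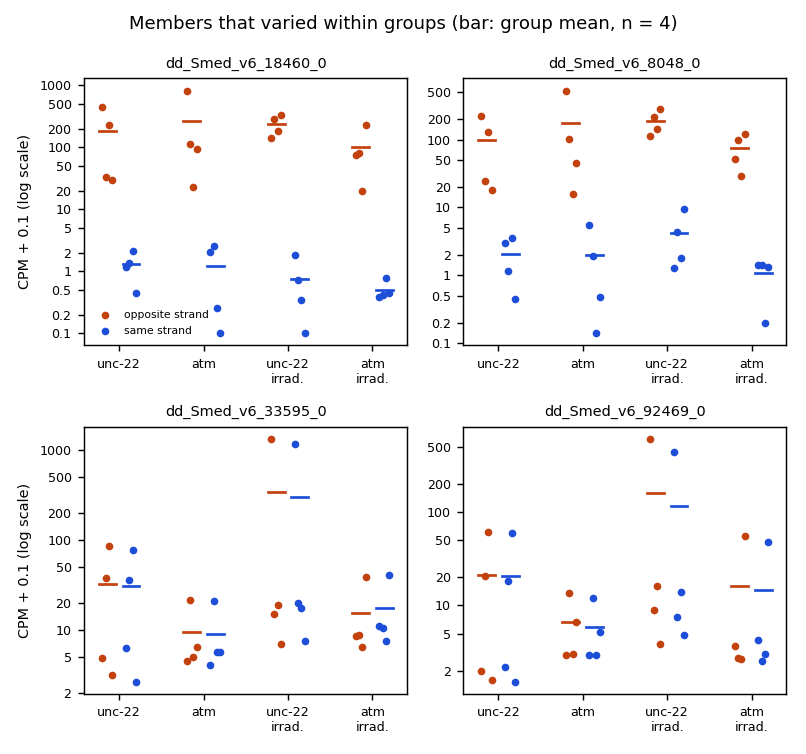
CPM on the opposite strand (orange) and the same strand (blue) in each library of 4 members, with 0.1 added on a log axis and a bar for each group mean (n = 4). In dd_Smed_v6_33595_0 and dd_Smed_v6_92469_0 replicate 1 of irradiated unc-22(RNAi) stands alone at 1332 and 613 CPM on the opposite strand, and in dd_Smed_v6_18460_0 and dd_Smed_v6_8048_0 libraries of each group spread widely.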

How the data were processed

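The authors deposited raw read counts, as a matrix over all libraries and as a file per library with an unstranded count and a count for each strand of every dd_Smed_v6 transcript. Reads were trimmed with Trim Galore 0.6.5 and aligned with STAR 2.7.9, per the submitters' processing notes; libraries were made with a directional kit, per the labels' protocols. The unstranded count equalled the sum of both strands in every gene. Same-strand means the strand held in the deposited matrix. Reads that map to several places are outside the counts, so near-identical genes are uncertain.

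Transcripts sharing the first 2 numbers of their identifier were summed. Counts of both strands were fitted together with edgeR 4.0.16 in R 4.3.3: filterByExpr, TMM factors, 1 coefficient per group, quasi-likelihood tests with 12 residual degrees of freedom, and Benjamini-Hochberg adjustment over 23154 features (5360 opposite-strand, 17794 same-strand). The strand ratio was tested with library effects in the same way. CPM values are per 1000000 scaled reads. Python 3.11.15 with pandas 2.3.3 made the summaries, and the fits were tested on simulated data. A simulated log2 change of 2 was recovered in 63.5% of changed features for the interaction and in 85.0% to 93.0% for the other contrasts. The changed features were drawn only from those above a minimum mean CPM. These rates therefore do not cover features of lower level, where many opposite-strand features lie. DESeq2 1.42.0, other scaling, no filter, opposite-strand reads alone, lanes, a replicate block, left-out libraries and the compared groups alone (chosen after seeing the data) were alternatives.

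Named are the 10 members with the most opposite-strand reads and, per contrast, up to 3 rising and 3 falling called members with the smallest p (2 each way for the strand ratio), plus those at the cutoffs. The members and lists were chosen with earlier results of these data known. Lanes 7 and 8 are the lane numbers carried by the deposited files. Libraries of a group differed beyond sampling noise (24 pairs, lowest chi-square divided by its degrees of freedom 15.0). No sequence or annotation was used here.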

Additional observations from a re-analysis of the deposited data

Results flagged for a closer look

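In 132 sets of 4 libraries, 19 held 1 library far from the others. Chance flags about 1 in 20 of independent sets. The sets here include genes chosen after their values were seen and both strands of a gene, so the 19 cannot be held against that rate. In irradiated unc-22(RNAi), replicate 1 stood apart for dd_Smed_v6_33595_0 at 1332 CPM on the opposite and 1176 CPM on the same strand, for dd_Smed_v6_92469_0 at 613 and 441 CPM, and for the summed member share at 61.2%. In irradiated atm(RNAi), replicate 4 stood apart for dd_Smed_v6_33595_0 at 38.7 CPM on the opposite and 40.8 CPM on the same strand, for dd_Smed_v6_92469_0 at 55.0 and 48.5 CPM, and for the opposite strand of dd_Smed_v6_4330_0 at 29.3 CPM. Replicate 1 of that group was apart for the opposite strand of dd_Smed_v6_1760_1 at 125 CPM.

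In unirradiated atm(RNAi), replicate 1 stood apart on the opposite strand for dd_Smed_v6_18460_0 at 824 CPM and dd_Smed_v6_8048_0 at 531 CPM, and on the same strand for dd_Smed_v6_4330_0 at 30.3 CPM. Replicate 2 was apart for dd_Smed_v6_2627_0, low at 58.9 CPM, and for dd_Smed_v6_33595_0, high at 21.8 CPM on the opposite and 20.8 CPM on the same strand. In unirradiated unc-22(RNAi), replicate 3 stood apart for dd_Smed_v6_172_1 at 9.90 CPM on the same strand and dd_Smed_v6_4330_0 at 33.7 CPM on the opposite strand.

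The irradiation effect differed between atm(RNAi) and unc-22(RNAi) by the interaction test in 3 results, as log2 differences: 2.52 (edgeR adjusted p = 0.00307) for dd_Smed_v6_5639_0 and 0.88 (edgeR adjusted p = 0.0356) for dd_Smed_v6_2475_0, both on the opposite strand, and 0.79 (edgeR adjusted p = 0.045) for dd_Smed_v6_2532_0 on the same strand. The call of dd_Smed_v6_2475_0 missed the threshold in 15 alternative settings and that of dd_Smed_v6_2532_0 in 16.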

How the results depend on the processing

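Counts of called members moved with the processing. For irradiation in unc-22(RNAi), 48 on the opposite strand became 28 with these reads fitted alone, 26 in lane 7 and 1 in lane 8, and ran from 37 to 48 with 1 library left out; 26 on the same strand became 15 in lane 7, 0 in lane 8 and 40 with DESeq2 (21 to 30 with 1 library left out). For irradiation in atm(RNAi), 1 on the opposite strand became 7 without a filter, 5 with DESeq2, 2 with the compared groups alone and 0 in either lane or with opposite-strand reads alone (0 to 6); 1 on the same strand became 3 without a filter, 5 with DESeq2, 3 with the replicate block and 0 in either lane (1 to 3). For atm against unc-22, 0 in unirradiated cells became 1 without a filter (0 to 0), and 13 in irradiated cells became 20 without a filter, 22 with DESeq2, 3 in lane 7, 1 with opposite-strand reads alone, and 0 in lane 8 or with the compared groups alone (5 to 21). For the interaction, 2 became 1 with relative log expression factors, 4 without a filter or with DESeq2, and 0 in either lane or with opposite-strand reads alone (1 to 4). Changed strand ratios numbered 3, and 0 in lane 8 (3 to 7); under atm(RNAi) they stayed at 0 to 0. Of the 142 members, 62 kept a share of 50% in every library. The causes were not tested, other than that each lane has 2 libraries a group.

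Of 927 values of 40 named results under the alternatives, 758 kept their call, 167 kept their direction but missed the threshold and 2 reversed. Both were dd_Smed_v6_33595_0 in irradiated cells, at 0.22 without replicate 1 of irradiated unc-22(RNAi) (-5.43 to 0.22 over all left-out libraries) and 0.81 in lane 7. Relative log expression factors moved the median log2 change of all features with irradiation in unc-22(RNAi) from 0.01 to 0.15. Correlations of same-numbered libraries ran from -0.0853 to 0.393 over 24 pairs. In 2 pairs they were over 0.1, and the own number was best in 14. The main fit held no replicate block, and whether same-numbered libraries share a batch was not tested. The replicate block gave 51, 1, 0, 18 and 3 opposite-strand calls in the contrasts as ordered above and 2 changed strand ratios, without dd_Smed_v6_2627_0 (edgeR adjusted p = 0.0735). The filter on low counts kept 112 of the 142 members on the same strand.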
